A study of Mus musculus with 12 samples.

Results

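The 41 genes described here encode the collagens, glycoproteins and elastic fibres of the liver's extracellular matrix, the proteases and growth factors that remodel it, and proteins that mark hepatic stellate cells. They were taken by gene symbol from a deposited matrix of raw gene counts. All 41 symbols were found among its 54532 genes, and 39 held enough counts to be tested. Lox, which cross-links collagen and elastin, and Tagln, an actin-binding protein of contractile cells, were the 2 left out, with at most 11 and 10 counts in any library.

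Hepatic stellate cells are the pericytes of the liver sinusoid. They store vitamin A as retinyl esters, and after injury they can turn into contractile myofibroblasts that secrete fibrillar collagens. TGF-beta 1 and the platelet-derived growth factors are the signals best known for driving this change, while metalloproteinases cut the matrix and their tissue inhibitors restrain them. Several genes of the list are not confined to stellate cells: hepatocytes secrete plasma fibronectin and make collagen XVIII, and macrophages make vimentin and TGF-beta 1.

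The study examined ANGPTL8, a secreted protein of liver and fat that takes part in restraining lipoprotein lipase, and lipid metabolism in the liver of chow mice. Liver RNA of WT mice was sequenced 9 days after 1 of 4 adenoviruses. The ANG8 group received a virus to overexpress ANGPTL8 and the Ad_GFP group its control virus. The shANG8 group received a virus to knock Angptl8 down and the shCtrl group a virus with a control hairpin. Each group held 3 libraries, all 4 groups carried an adenovirus, and the labels state no promoter, dose, route, sex or age. Whether the 3 libraries of a group came from separate mice is not stated either, so every p-value reflects only how far these samples spread, which may be technical.

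Libraries held 12537083 to 15144312 counts, and levels are given as CPM, counts scaled to a common library size by the trimmed mean of M values. Angptl8 was at 165 to 314 CPM in ANG8 libraries, against 80.4 to 96.8 CPM in Ad_GFP libraries, and at 79.2 to 144 CPM in shANG8 libraries, against 167 to 391 CPM in shCtrl libraries. Neither pair of groups overlapped, but the shCtrl libraries all lay above the Ad_GFP libraries, and their range overlapped that of the ANG8 libraries. How far differences between the groups follow the level of Angptl8 RNA was not tested. Genes of the mitochondrial genome took 39.0%, 43.8% and 22.5% of the counts in ANG8 libraries 1, 2 and 3 and 19.8% to 34.9% in Ad_GFP libraries, so ANG8 library 3 stood apart from the other ANG8 libraries. In the other arm these genes took 19.3% to 22.9% of the counts in shANG8 libraries and 22.9% to 24.2% in shCtrl libraries.

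The members differed widely in level. Per length, as TPM (counts scaled for gene length and library size) averaged over the 12 libraries, Col18a1 was highest at 181 TPM and held 42.2% of the members' summed TPM. Fn1 followed at 61.7 TPM (14.3%) and Spp1 at 55.5 TPM (12.9%), then Vim at 27.2 TPM and Mmp14 at 25.8 TPM. The remaining members lay at 10.1 TPM (Tgfbi) or below, down to 0.0987 TPM for Lox. Defining stellate cell genes were detected at low levels: Lrat, the enzyme that makes retinyl esters, averaged 1.01 TPM, Reln, a secreted glycoprotein, 0.590 TPM and Des, the intermediate filament desmin, 1.86 TPM. By abundance, then, the list was led by a collagen and a glycoprotein that hepatocytes also make rather than by stellate cell markers.

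Between ANG8 and Ad_GFP livers 9 of the 39 tested members were called: 7 were higher in ANG8 livers and 2 were lower. Pdgfc, Tgfb1, Mmp14, Tgfbi, Vim, Col4a1 and Eln rose by 2.12-fold to 5.56-fold in ANG8 livers, and Col18a1 and Fn1 fell to 0.507 and 0.528 of their Ad_GFP level. Calls rest on edgeR's quasi-likelihood test at an adjusted p under 0.05, with Benjamini-Hochberg adjustment over all 14686 tested genes. The members' share was 23.1%, against a background of 13.5% of all tested genes (1978 of 14686), with 7.08% called higher and 6.39% called lower. Of the 39 members 33 had a positive log2 fold change, with a median of 0.44, where 50% of all tested genes were positive around a median of -0.000221. The 30 members that were not called had a median of 0.32. Members were also measured with more error than most genes, with a median standard error (SE) of 0.48 on the log2 scale against 0.26 for all tested genes. In bulk liver RNA, more cells of a type and more RNA per cell cannot be told apart.

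**Figure D1:**
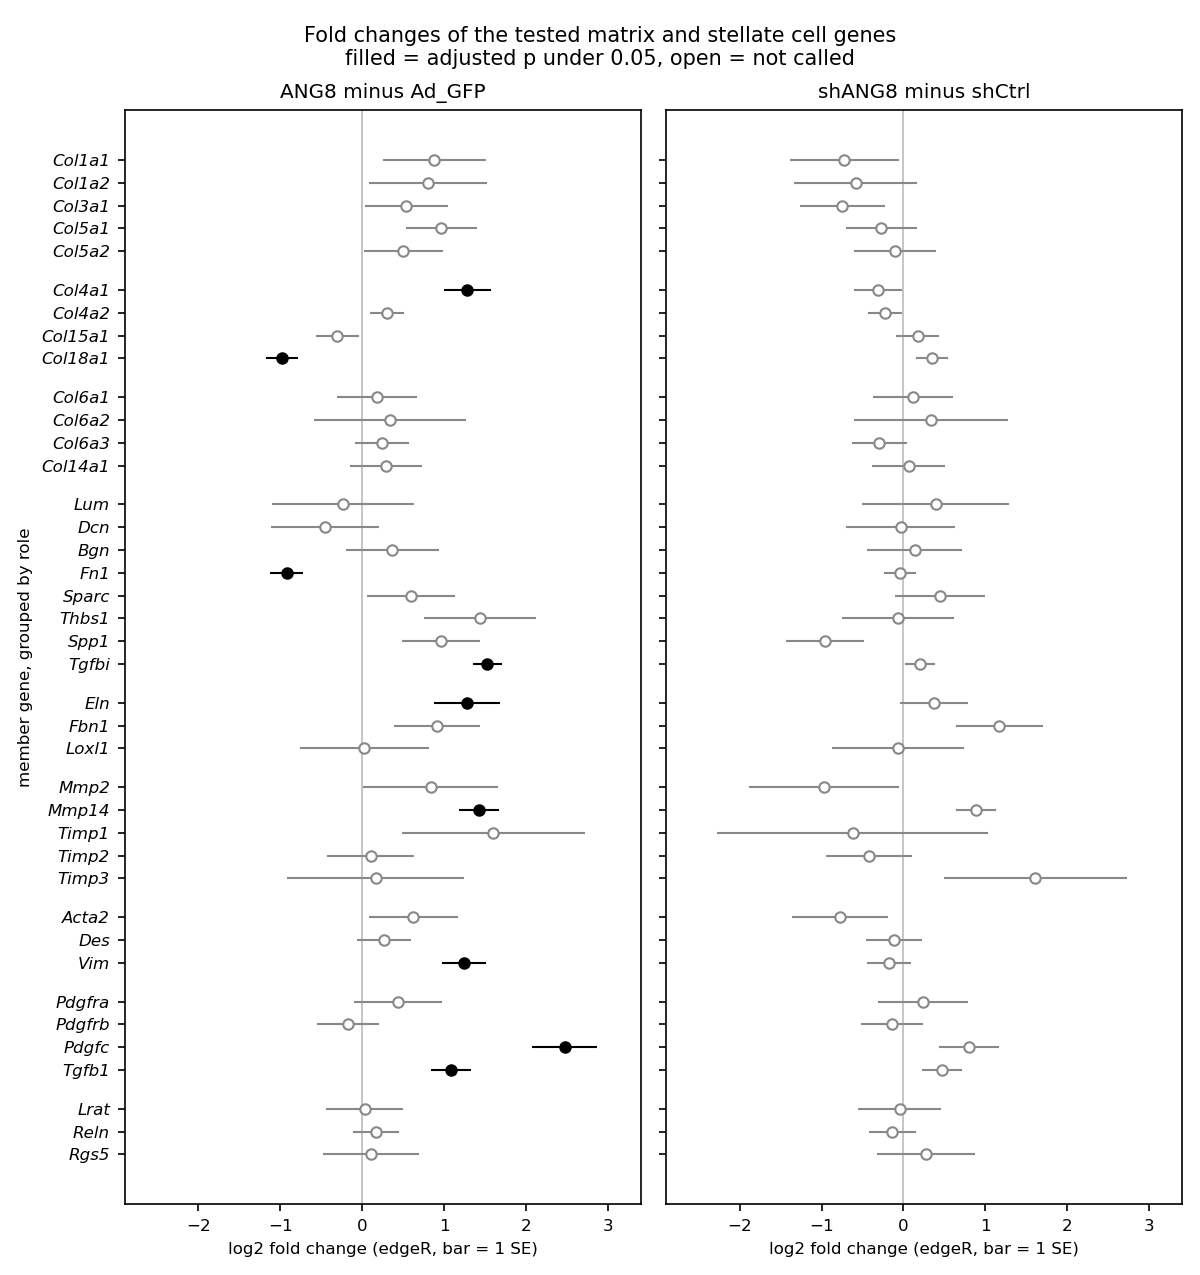
Log2 fold changes from edgeR of the 39 tested members, grouped by role, for ANG8 minus Ad_GFP on the left and shANG8 minus shCtrl on the right; points are estimates, bars are 1 SE, and filled points passed an adjusted p under 0.05. The 9 filled points are all on the left, 7 to the right of zero and 2 (Col18a1 and Fn1) to its left.

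Knockdown moved none of them past the threshold. In shANG8 minus shCtrl, edgeR called 0 of the 39 members, against 28 of 14686 genes (0.191%, with 0.0613% higher and 0.129% lower), and DESeq2 and limma voom also called 0 members. At an unadjusted p under 0.05 there were 3 members, Mmp14, Fbn1 and Pdgfc, all with positive fold changes, where 7.93% of all tested genes passed. The members' median log2 fold change was -0.05.

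The growth factors gave the largest rise. Pdgfc encodes platelet-derived growth factor C, a ligand that signals through PDGF receptor alpha and is made by several liver cell types. It lies on the plus strand of chr3:81036416-81214040 (GRCm38, protein-coding). Pdgfc had 3.62, 5.08 and 5.28 CPM in ANG8 livers, against 0.949, 0.592 and 0.941 CPM in Ad_GFP livers. These come from 50 to 87 raw counts in ANG8 libraries and 8 to 15 in Ad_GFP libraries. All ANG8 libraries lay well above all Ad_GFP libraries, a log2 fold change of 2.47 (SE 0.39, adjusted p = 0.00086), the largest of any member. Pdgfc had 3.03, 2.75 and 4.71 CPM in shANG8 livers, against 2.17, 2.39 and 1.44 CPM in shCtrl livers. The groups did not overlap there either, but the log2 fold change of 0.80 (SE 0.37) was not called (adjusted p = 0.607). The shCtrl libraries also stood above the Ad_GFP libraries without overlap, by 1.26 (SE 0.40, adjusted p = 0.442), so Ad_GFP was the lowest of the 4 groups for this gene.

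Tgfb1 encodes TGF-beta 1, the principal fibrogenic cytokine, which is secreted in a latent form by many cell types including macrophages (chr7:25687002-25705077, plus strand). Its level was 30.1, 32.9 and 31.9 CPM in ANG8 livers, against 12.3, 16.4 and 16.01 CPM in Ad_GFP livers. The ANG8 libraries were close together and all about the same distance above their controls, a log2 fold change of 1.09 (SE 0.24, adjusted p = 0.0068). In the knockdown arm Tgfb1 was at 17.3, 8.65 and 16.2 CPM in shANG8 livers and 13.0, 9.36 and 7.98 CPM in shCtrl livers, which overlapped (log2 fold change 0.47, adjusted p = 0.672). The receptors were not called. Pdgfra, the receptor for PDGF-C, had a log2 fold change of 0.44 (SE 0.54, adjusted p = 0.655), and Pdgfrb, which marks pericytes and responds to PDGF-BB, one of -0.17 (SE 0.37, adjusted p = 0.812).

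The promoters of Pdgfc, Tgfb1 and the protease gene Mmp14 are shown because these 3 members were each called higher in ANG8 livers and their windows hold no annotated exon. Each line gives the 150 bases before the RefSeq transcription start, from RefSeq on GRCm38.p6, 5′ to 3′ on the strand of the gene. Capitals mark GC boxes (GGGCGG or CCGCCC) and CCAAT boxes (CCAAT or ATTGG).
Pdgfc, chr3:81036266-81036415, plus strand: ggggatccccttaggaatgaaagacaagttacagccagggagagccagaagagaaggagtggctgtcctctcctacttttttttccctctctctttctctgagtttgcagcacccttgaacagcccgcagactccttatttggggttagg
Tgfb1, chr7:25686852-25687001, plus strand: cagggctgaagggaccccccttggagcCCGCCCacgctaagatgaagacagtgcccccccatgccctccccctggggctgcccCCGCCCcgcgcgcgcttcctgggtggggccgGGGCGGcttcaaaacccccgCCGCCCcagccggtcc
Mmp14, chr14:54431448-54431597, plus strand: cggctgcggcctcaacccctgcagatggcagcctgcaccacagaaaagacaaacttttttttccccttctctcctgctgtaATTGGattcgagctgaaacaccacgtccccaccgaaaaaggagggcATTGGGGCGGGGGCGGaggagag
Tgfb1 held 4 GC boxes, Mmp14 held 2 GC boxes and 2 CCAAT boxes, with an overlap between a box of each kind, and Pdgfc held neither. The other motifs searched on both strands were a TATA box (TATAAA or TTTATA) and an AP-1 site (TGAGTCA or TGACTCA), and none of the 3 windows holds either. Promoters were listed for 28 of the 41 members, in 31 windows, of which 14 held a GC box, 8 a CCAAT box, 2 a TATA box and 1 an AP-1 site. Among all 32851 windows of the same length, 28.6% held a GC box, 24.5% a CCAAT box, 7.57% a TATA box and 2.84% an AP-1 site. A match describes these letters only.

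**Figure D2:**
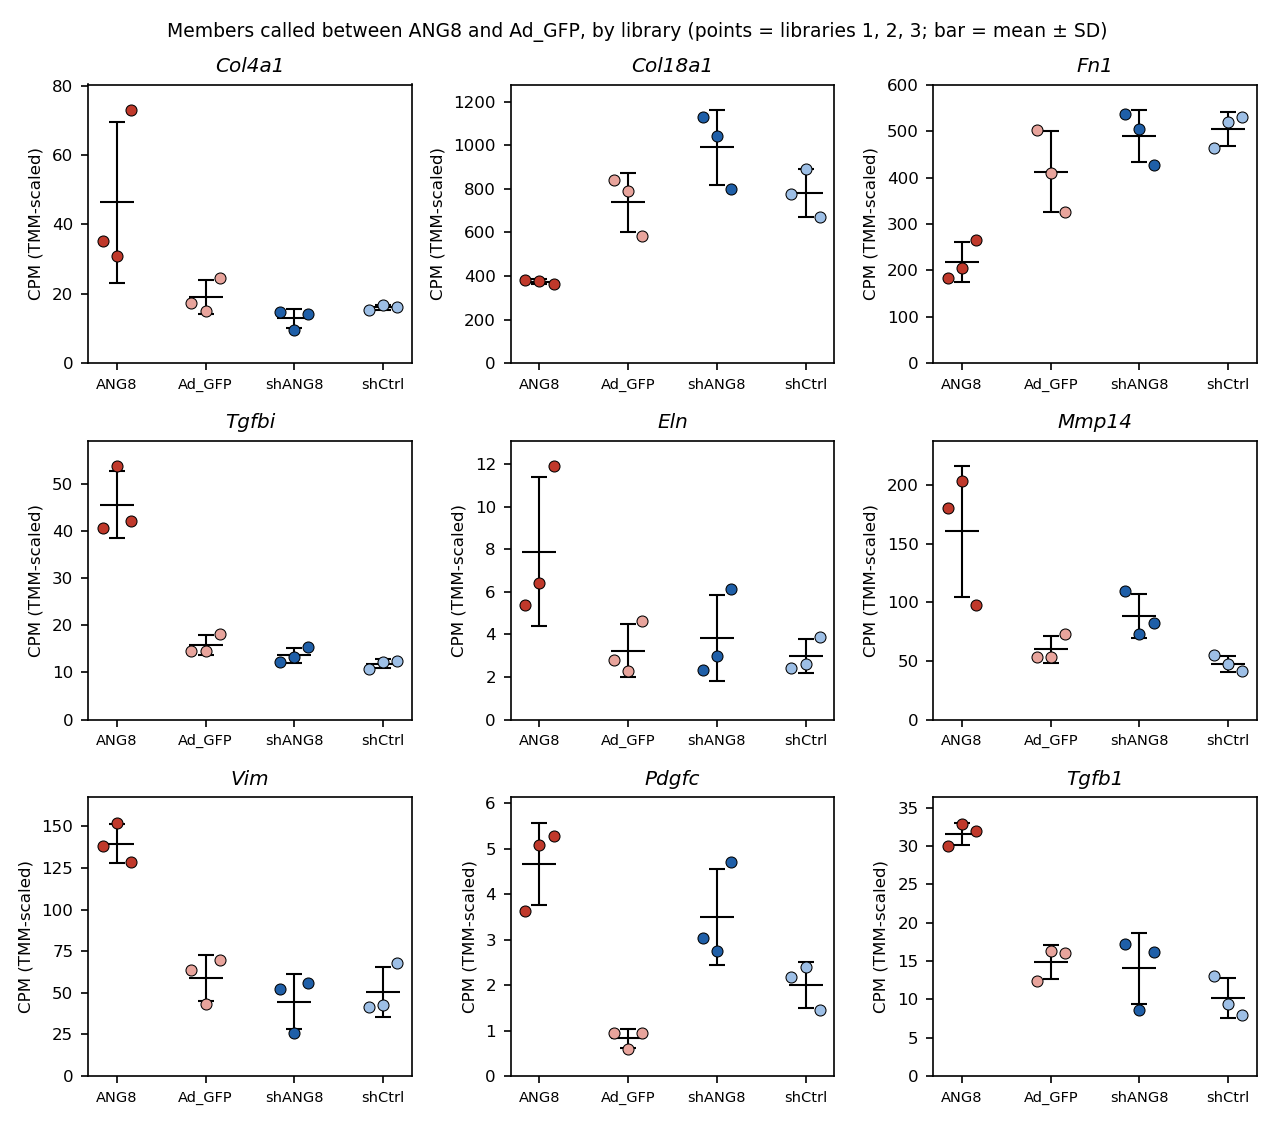
TMM-scaled CPM of the 9 members called between ANG8 and Ad_GFP in each library of the 4 groups; points are libraries and bars the mean ± SD (n = 3). The ANG8 points lie above every Ad_GFP point for 7 genes and below every Ad_GFP point for Col18a1 and Fn1.

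Markers of quiescent stellate cells and pericytes did not pass the test in either arm, and in the overexpression arm the 3 genes gave 0 at an unadjusted p under 0.05 and 0 by DESeq2 or limma voom. Reln had 6.52, 9.59 and 10.5 CPM in ANG8 livers, against 6.58, 5.70 and 11.3 CPM in Ad_GFP livers, and Rgs5, a G-protein regulator of pericytes, had 6.88, 6.07 and 10.8 CPM against 6.52, 2.89 and 12.6 CPM. Both pairs of groups overlapped, with log2 fold changes of 0.17 (SE 0.28) for Reln and 0.11 (SE 0.58) for Rgs5. The log2 fold change of Lrat was 0.03 (SE 0.47). In the knockdown arm the log2 fold changes of these genes ran from -0.13 (Reln) to 0.27 (Rgs5), with adjusted p of at least 0.953. Reln was at 8.56, 6.21 and 6.61 CPM in shANG8 livers and 7.53, 6.70 and 9.27 CPM in shCtrl livers, and Rgs5 at 11.4, 2.99 and 6.82 CPM and 3.46, 3.96 and 10.2 CPM in the same order. A wider list of 18 stellate cell markers, 4 of which are members, held 174 to 245 summed CPM in ANG8 livers and 183 to 299.996 CPM in Ad_GFP livers. Cxcl12, a chemokine, was the largest part of this sum, at 92.9 to 104 CPM in ANG8 livers and 101 to 162 CPM in Ad_GFP livers. At an unadjusted p under 0.05 edgeR found 4 of the 16 tested genes, where 27.7% of all tested genes passed. After adjustment 0 of the 16 were called higher and 1 lower, Vipr1 (a receptor for vasoactive intestinal peptide, -1.22, SE 0.31, adjusted p = 0.015).

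Of the 3 tested contractile and filament genes 1 rose. Vim, which encodes vimentin, a filament that immune and endothelial cells also contain (chr2:13573927-13582826, plus strand), had 138, 152 and 129 CPM in ANG8 livers, against 63.6, 43.4 and 69.9 CPM in Ad_GFP livers. The groups were far apart, with a log2 fold change of 1.24 (SE 0.27, adjusted p = 0.0076). Acta2, the smooth muscle actin of myofibroblasts, had 5.65, 4.67 and 7.89 CPM in ANG8 livers, against 3.48, 1.85 and 6.46 CPM in Ad_GFP livers. Its groups overlapped and its log2 fold change of 0.63 (SE 0.54, adjusted p = 0.499) was not called, nor was that of Des (0.26, SE 0.33). After knockdown Vim was at 52.3, 25.8 and 56.1 CPM in shANG8 livers and 41.3, 42.8 and 68.1 CPM in shCtrl livers. Acta2 had 1.14, 1.73 and 2.46 CPM in shANG8 livers, against 1.29, 1.64 and 6.31 CPM in shCtrl livers, and shCtrl library 3 stood far above the rest. Tagln, not tested, had 1 to 10 counts in ANG8 libraries and 2 or 3 in each Ad_GFP library, and 62.4% of its exon length is shared with an antisense gene.

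The fibrillar collagens, the main load-bearing matrix of scar tissue, had higher mean levels in ANG8 livers without any member passing. All 5 log2 fold changes were positive, from 0.50 (Col5a2) to 0.97 (Col5a1). At an unadjusted p under 0.05 edgeR found 1 of the 5, Col5a1, while DESeq2 and limma voom called 0. Col3a1, which encodes type III collagen and was the class's most abundant gene per length, had 33.7, 30.1 and 61.9 CPM in ANG8 livers, against 29.7, 16.1 and 40.6 CPM in Ad_GFP livers. The groups overlapped, and the log2 fold change was 0.54 (SE 0.50, adjusted p = 0.545). Col5a1, a collagen that regulates fibril diameter, had 2.32, 4.75 and 7.04 CPM in ANG8 livers, against 3.10, 2.30 and 1.82 CPM in Ad_GFP livers. Here too 1 ANG8 library lay among the controls (log2 fold change 0.97, SE 0.44, adjusted p = 0.156). Col1a1 and Col1a2, the chains of type I collagen, had log2 fold changes of 0.88 (SE 0.63) and 0.80 (SE 0.72).

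In the knockdown arm all 5 fibrillar collagens had negative log2 fold changes, from -0.75 (Col3a1) to -0.10 (Col5a2), and again none passed (smallest adjusted p 0.784, with 0 before adjustment at 0.05 and 0 by either DESeq2 or limma voom). Col3a1 had 14.0, 10.3 and 18.1 CPM in shANG8 livers, against 16.1, 12.4 and 43.2 CPM in shCtrl livers. Without shCtrl library 3 the shCtrl levels would lie among those of shANG8. Col5a1 was at 2.20, 4.17 and 1.83 CPM in shANG8 livers and 2.38, 4.58 and 2.89 CPM in shCtrl livers.

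Spread between libraries of 1 group was large for these collagens. Summed over the 5 fibrillar collagens, the level was 59.3, 69.9 and 126 CPM in ANG8 libraries 1, 2 and 3 and 53.2, 27.2 and 79.1 CPM in Ad_GFP libraries. It was 24.4, 22.7 and 41.6 CPM in shANG8 libraries and 29.9, 28.7 and 79.7 CPM in shCtrl libraries. In each group the library numbered 3 was highest in this sum. ANG8 library 3 was the highest of its group for 26 of the 39 members (66.7%, against 35% of all tested genes), Ad_GFP library 3 for 29 (74.4%, against 28.3%), shANG8 library 3 for 18 (46.2%, against 31.5%), close to library 1 of that group with 17 (43.6%, against 33.2%), and shCtrl library 3 for 27 (69.2%, against 36.6%). The lowest library was ANG8 1 for 24 members (27.3% of all tested genes), Ad_GFP 2 for 30 (36.3%) and shANG8 2 for 23 (34.2%). In the shCtrl group libraries 1, 2 and 3 were lowest for 15, 17 and 7 members (31.2%, 30.2% and 38.6% of all tested genes). Portal fibroblast markers showed a like order, with 68.2, 79.2 and 116 summed CPM in ANG8 libraries and 59.0, 43.2 and 80.8 CPM in Ad_GFP libraries. The order was not particular to them. Stellate cell markers summed to 174, 190 and 245 CPM in ANG8 libraries and 252, 183 and 299.996 CPM in Ad_GFP libraries. Macrophage markers summed to 1415, 1435 and 1802 CPM and to 723, 589 and 800.1 CPM. T and NK cell markers did not follow it, at 195, 178 and 169 CPM in ANG8 libraries. The part of any of these cell types in the collagen levels was not tested.

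**Figure D3:**
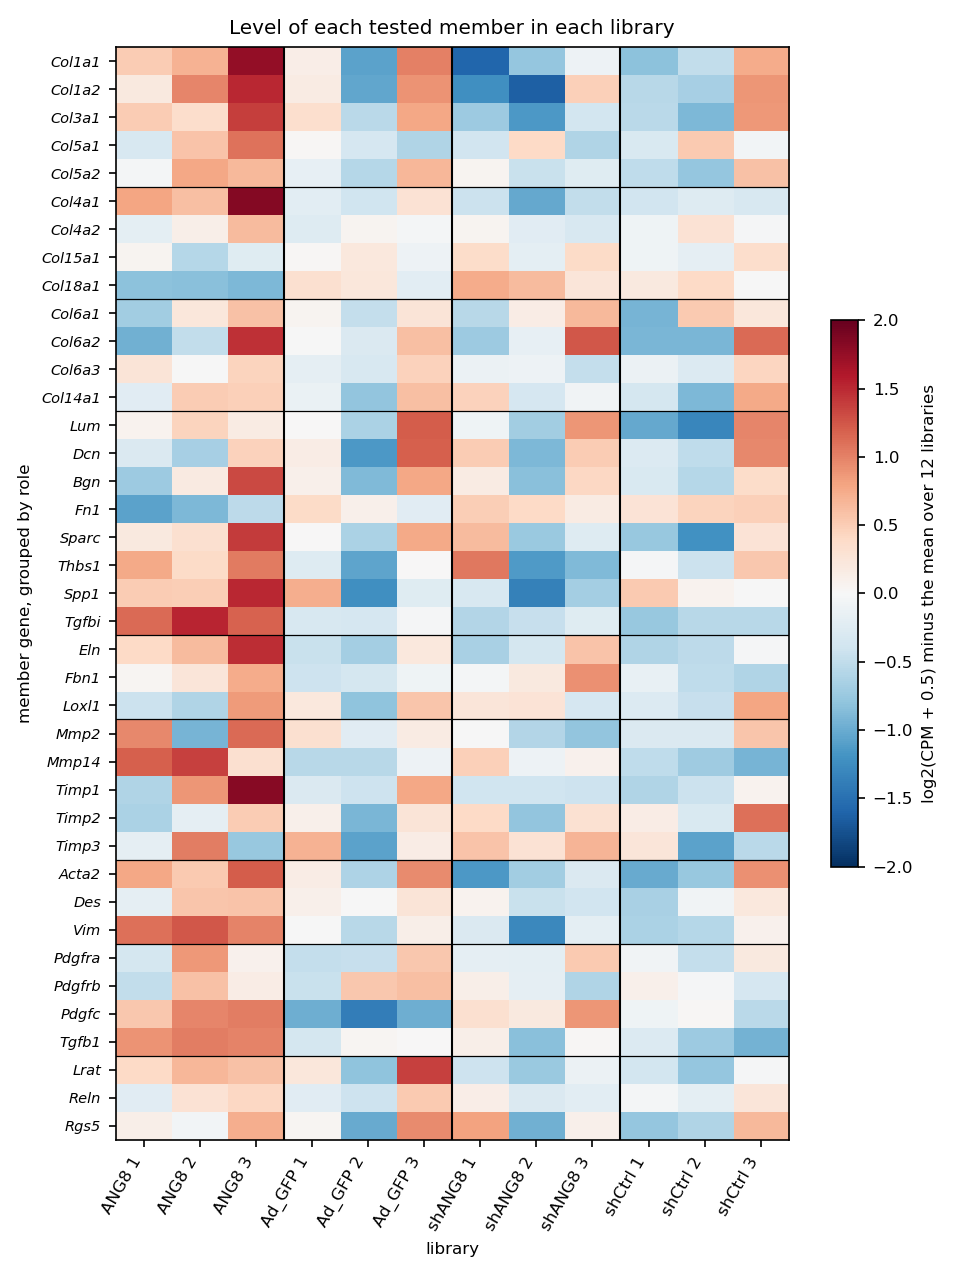
Level of each tested member in each of the 12 libraries, as log2(CPM + 0.5) minus the gene's mean over the 12 libraries, with members grouped by role and vertical lines between the groups ANG8, Ad_GFP, shANG8 and shCtrl. In ANG8, Ad_GFP and shCtrl the third column is the darkest red of its group for many collagens and proteoglycans. In shANG8, library 3 was highest for 6 of the 13 collagens and library 1 for 5. Vim, Tgfbi, Tgfb1, Pdgfc and, in blue, Col18a1 and Fn1 differ between ANG8 and Ad_GFP in all 3 libraries.

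The basement membrane collagens split. Col4a1 rose and Col18a1 fell in ANG8 livers, while Col4a2 and Col15a1 did not pass. Col4a1 encodes the alpha-1 chain of type IV collagen, the network-forming collagen of basement membranes (chr8:11198423-11312826, minus strand). Its level was 35.1, 30.8 and 73.0 CPM in ANG8 livers, against 17.4, 15.1 and 24.6 CPM in Ad_GFP livers. All ANG8 libraries were above all Ad_GFP libraries, with library 3 far above the other ANG8 libraries. The log2 fold change was 1.28 (SE 0.29, adjusted p = 0.0089), it was 0.77 without ANG8 library 3 (adjusted p = 0.039), and without Ad_GFP library 2 the call was lost (1.15, adjusted p = 0.051). In the knockdown arm Col4a1 had 14.9, 9.68 and 14.1 CPM in shANG8 livers, against 15.3, 16.8 and 16.1 CPM in shCtrl livers, groups that did not overlap but whose log2 fold change of -0.32 (SE 0.29) was not called (adjusted p = 0.852).

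Col4a2 encodes the alpha-2 chain that assembles with alpha-1 in the same trimer (chr8:11312805-11449287, plus strand). It had 17.96, 22.5 and 32.3 CPM in ANG8 livers, against 17.3, 21.6 and 20.2 CPM in Ad_GFP livers (log2 fold change 0.30, SE 0.21, adjusted p = 0.380). The genes of the 2 chains are transcribed away from each other, and their annotated first exons overlap by 22 bases at chr8:11312805-11312826 (GRCm38.p6), shown on each gene's strand with the GC box in capitals because both genes start within it.
Col4a2, plus strand: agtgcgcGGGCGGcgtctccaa
Col4a1, minus strand: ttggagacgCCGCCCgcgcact
The ratio of Col4a1 to Col4a2 raw counts was 1.96, 1.37 and 2.26 in ANG8 livers, against 1.00, 0.699 and 1.22 in Ad_GFP livers, and 0.693, 0.547 and 0.852 in shANG8 livers, against 0.781, 0.663 and 0.791 in shCtrl livers. The 3 ANG8 ratios were the highest of the 12. This ratio was singled out after the values were seen. The log2 difference of 0.94 between ANG8 and Ad_GFP gave p = 0.1 in a two-sided exact permutation test, the smallest p that 3 against 3 allows, and 0.4 after Benjamini-Hochberg adjustment over 4 pairs of collagen chains. Between shANG8 and shCtrl the log2 difference was -0.12 (exact permutation p = 0.7, adjusted 1). For Col1a1 to Col1a2, whose products join in type I collagen, the ratios overlapped and differed by 0.10 on the log2 scale in the overexpression arm (exact permutation p = 0.7, adjusted 0.8).

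**Figure D4:**
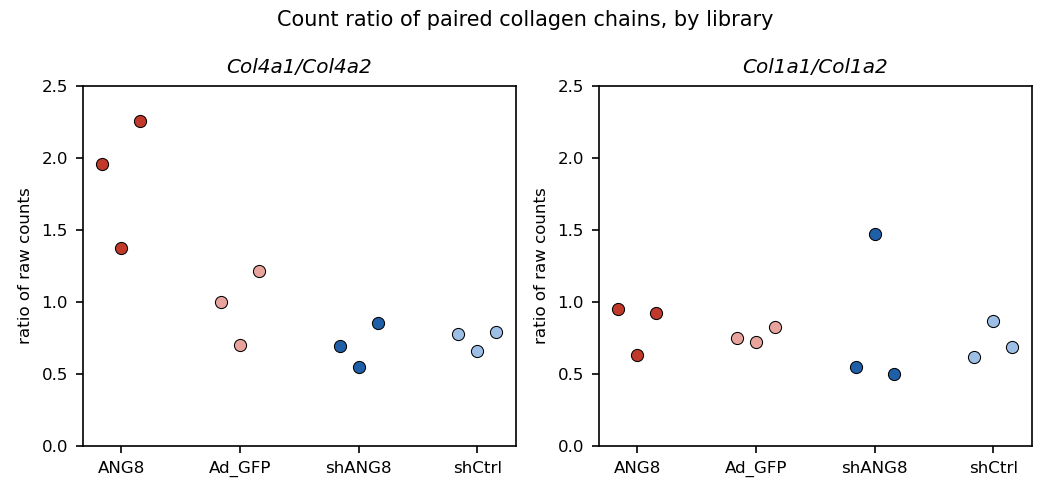
Ratio of raw counts of Col4a1 to Col4a2 (left) and of Col1a1 to Col1a2 (right) in each library of the 4 groups. The ANG8 points for Col4a1 to Col4a2 run from 1.37 to 2.26, above the Ad_GFP points at 0.699 to 1.22, whereas the Col1a1 to Col1a2 points of these groups overlap.

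Col18a1 encodes collagen XVIII, a basement membrane proteoglycan whose tail is the source of endostatin (chr10:77052178-77166548, minus strand). It had 382, 378 and 363 CPM in ANG8 livers, against 841, 791 and 585 CPM in Ad_GFP livers. The ANG8 libraries were nearly identical and all below the lowest control, a log2 fold change of -0.98 (SE 0.20, adjusted p = 0.0040). Col18a1 was at 1133, 1042 and 801 CPM in shANG8 livers and 775, 892 and 671 CPM in shCtrl livers, with overlap (0.35, SE 0.20, adjusted p = 0.70). Col15a1, the collagen closest to it in structure, had a log2 fold change of -0.30 (SE 0.26) in the overexpression arm and was not called.

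Collagens of microfibrils and fibril surfaces were not called, and edgeR, DESeq2 and limma voom each called 0 of 4 in the overexpression arm, with 0 at an unadjusted p under 0.05. Their log2 fold changes ran from 0.19 (Col6a1) to 0.34 (Col6a2). Col14a1, a fibril-associated collagen, had 7.68, 13.1 and 12.7 CPM in ANG8 livers and 8.22, 5.03 and 14.0 CPM in Ad_GFP livers. Col6a3, a chain of the beaded microfibril collagen VI, had 4.56, 3.69 and 5.28 CPM and 3.23, 2.89 and 5.31 CPM in the same groups. Ad_GFP library 3 reached the ANG8 range for both genes. Col14a1 was at 12.7, 7.08 and 8.58 CPM in shANG8 livers and 6.99, 4.65 and 15.7 CPM in shCtrl livers. Under knockdown the 4 log2 fold changes ran from -0.30 to 0.34, and Col6a3 was at 3.41, 3.46 and 2.53 CPM in shANG8 livers and 3.39, 3.01 and 5.17 CPM in shCtrl livers.

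Among 8 glycoproteins and proteoglycans, Tgfbi rose and Fn1 fell. Tgfbi encodes a secreted adhesion protein named for its induction by TGF-beta (chr13:56609523-56639562, plus strand). Its level was 40.7, 53.7 and 42.2 CPM in ANG8 livers, against 14.6, 14.5 and 18.2 CPM in Ad_GFP livers. Every ANG8 library was far above every Ad_GFP library. The log2 fold change was 1.53 (SE 0.18), with the smallest adjusted p of any member, 7.6e-05. Tgfbi under knockdown was at 12.1, 13.2 and 15.4 CPM in shANG8 livers and 10.7, 12.3 and 12.4 CPM in shCtrl livers (0.20, SE 0.18, adjusted p = 0.842).

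Fn1 encodes fibronectin (chr1:71585520-71653200, minus strand). It had 183, 205 and 266 CPM in ANG8 livers, against 502, 409 and 327 CPM in Ad_GFP livers, with no overlap (log2 fold change -0.92, SE 0.20, adjusted p = 0.0058). In shANG8 livers it was at 538, 505 and 428 CPM and in shCtrl livers at 465, 520.2 and 531 CPM (-0.04, SE 0.20). Fn1 and Col18a1, the most abundant members per length, were thus also the members that fell. Genes of the hepatocyte marker list moved the same way: edgeR called 0 of 12 higher and 10 lower, with a median log2 fold change of -1.33, Hpd (tyrosine catabolism, -1.68) and Cyp2e1 (a drug-metabolising cytochrome, -1.69) among them. Their summed level was 24216, 25619 and 50938 CPM in ANG8 libraries 1, 2 and 3, against 45457 to 67718 CPM in Ad_GFP libraries. Alb (albumin) held most of this sum, at 15360, 16328 and 35632 CPM in ANG8 livers and 26824 to 36663 CPM in Ad_GFP livers. In ANG8 library 3, Apoa1 (7228 CPM) and Fgb (928 CPM) also lay above the lowest Ad_GFP library. The rest of the list stayed below every Ad_GFP library there, with Hpd at 381 CPM and Cyp2e1 at 526 CPM. Fn1 and Col18a1 kept their calls without ANG8 library 3, and the part of the hepatocyte genes' shift in their fall was not tested.

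The other glycoproteins were not called. Spp1, osteopontin, an adhesive cytokine of bile ducts and activated macrophages, had 62.4, 61.2 and 125 CPM in ANG8 livers, against 72.6, 18.3 and 36.7 CPM in Ad_GFP livers. The groups overlapped through Ad_GFP library 1 (log2 fold change 0.96, SE 0.47, adjusted p = 0.222). Without that library Spp1 passed at 1.59 (adjusted p = 0.043), and at 1.66 once the mitochondrial share entered the model (adjusted p = 0.0076). After knockdown it had 34.6, 16.8 and 27.0 CPM in shANG8 livers, against 63.0, 46.0 and 43.4 CPM in shCtrl livers, without overlap (-0.96, SE 0.48, adjusted p = 0.675). An exon of another gene on the same strand covers 18.8% of Spp1's exon length, which makes its counts uncertain. Thbs1, thrombospondin 1, an activator of latent TGF-beta, had a log2 fold change of 1.44 (SE 0.68, adjusted p = 0.180) in ANG8 livers with no overlap between groups. Sparc, Bgn, Lum and Dcn, which bind or organise collagen fibrils, had log2 fold changes of -0.45 to 0.60 and overlapped.

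Eln, the elastin gene (chr5:134702593-134747323, minus strand), had 5.36, 6.39 and 11.9 CPM in ANG8 livers, against 2.78, 2.30 and 4.64 CPM in Ad_GFP livers. The groups did not overlap, and the log2 fold change of 1.28 (SE 0.41) passed narrowly (adjusted p = 0.045). The call was lost without Ad_GFP library 1 (adjusted p = 0.141), Ad_GFP 2 (0.160), ANG8 1 (0.050), ANG8 2 (0.061), ANG8 3 (0.241), shCtrl 1 (0.055) or shCtrl 2 (0.059), and without ANG8 library 3 the fold change was 0.83. Fbn1, the microfibril protein fibrillin-1 on which elastin is laid down, had 1.23, 1.48 and 2.31 CPM in ANG8 livers, against 0.759, 0.814 and 1.08 CPM in Ad_GFP livers, separate groups whose log2 fold change of 0.92 (SE 0.53) was not called (adjusted p = 0.276). It was also higher without overlap in the knockdown arm, at 1.14, 1.42 and 2.67 CPM in shANG8 livers against 1.02, 0.683 and 0.608 CPM in shCtrl livers (1.17, SE 0.53, adjusted p = 0.604), and an antisense gene shares 20.1% of its exon length. Eln in that arm was at 2.35, 2.99 and 6.12 CPM in shANG8 livers and 2.44, 2.60 and 3.88 CPM in shCtrl livers. The cross-linking enzyme gene Loxl1 had a log2 fold change of 0.02 (SE 0.79) in ANG8 livers, and Lox, not tested, had 3, 8 and 11 counts in ANG8 libraries and 5, 0 and 3 in Ad_GFP libraries.

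Of the proteases and their inhibitors, Mmp14 rose. It encodes a membrane-anchored metalloproteinase that cuts collagen at the cell surface and activates pro-MMP2 (chr14:54431612-54445364, plus strand). Mmp14 had 180.1, 203 and 97.6 CPM in ANG8 livers, against 53.2, 52.9 and 73.0 CPM in Ad_GFP livers. All ANG8 libraries lay above the controls, though here library 3 was the lowest of its group (log2 fold change 1.42, SE 0.25, adjusted p = 0.0016). Mmp14 was also the member nearest to a call in the knockdown arm, and in the same direction, at 109, 72.7 and 82.6 CPM in shANG8 livers against 54.6, 47.4 and 40.97 CPM in shCtrl livers. Those groups did not overlap, but at 0.89 on the log2 scale (SE 0.24) the gene missed the threshold (adjusted p = 0.245) unless genes of low count were kept in the fit (0.86, adjusted p = 0.0059).

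The remaining members of this class were of low count and not called. Mmp2, the gelatinase that MMP14 activates, had a log2 fold change of 0.84 (SE 0.82). Timp1, the inhibitor most often raised in fibrosis, had 0, 11 and 36 raw counts in ANG8 libraries and 2, 1 and 12 in Ad_GFP libraries. In both groups library 3 held most of these counts, and the log2 fold change of 1.60 had an SE of 1.12. Timp2 and Timp3 had log2 fold changes of 0.10 (SE 0.53) and 0.17 (SE 1.08), and 21.3% of Timp3's exon length is shared with Syn3 on the other strand.

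Members were also counted by whether the libraries of the groups overlapped. In the overexpression arm 9 members were higher in every ANG8 library (Thbs1 and Fbn1 besides the 7 called), where 17.9% of all tested genes did so, and 2 were lower, where 16.2% did so. Under knockdown 4 members were higher in every shANG8 library (Mmp14, Pdgfc, Fbn1 and Timp3) and 2 lower (Spp1 and Col4a1), where 6.16% and 6.78% of all tested genes did so.

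The difference between the effects of the viruses was tested directly, as (ANG8 minus Ad_GFP) minus (shANG8 minus shCtrl). Of the 39 members 4 passed, against 972 of 14686 genes (6.62%, with 3.72% higher and 2.9% lower). These were Col4a1 (1.60, SE 0.41, adjusted p = 0.030), Tgfbi (1.33, SE 0.25, adjusted p = 0.0059), Vim (1.42, SE 0.38, adjusted p = 0.037) and Col18a1 (-1.33, SE 0.28, adjusted p = 0.011). The other 5 members called under overexpression did not pass here. For Fn1 the difference was -0.88 (SE 0.28, adjusted p = 0.068) and for Pdgfc 1.67 (SE 0.53, adjusted p = 0.071). The difference for Fn1 passed with DESeq2 (adjusted p = 0.022), without Ad_GFP library 3 (0.046) and without ANG8 library 3 (0.033). That for Pdgfc passed with DESeq2 (0.035) and without shANG8 library 3 (0.042). For Eln it was 0.91 (adjusted p = 0.384), for Tgfb1 0.61 (adjusted p = 0.311) and for Mmp14 0.54 (adjusted p = 0.391), so that a different response of these 3 genes to the viruses was not shown.

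The control viruses were also set against each other, since each arm has its own. In shCtrl minus Ad_GFP edgeR called 0 of the 39 members and 0% of all tested genes (46 genes by DESeq2, 0 by limma voom), and neither of the other tools called a member. At an unadjusted p under 0.05 there were 4 members (Pdgfc higher, Tgfbi, Tgfb1 and Lrat lower in shCtrl), where 8.76% of all tested genes passed. Pdgfc was the 1 member higher without overlap and Tgfbi the 1 lower, where 7.66% and 8.45% of all tested genes did so. For Tgfbi the log2 difference was -0.42 (SE 0.18) and for Tgfb1 it was -0.55 (SE 0.24) with overlap, at 7.98 to 13.0 CPM in shCtrl livers and 12.3 to 16.4 CPM in Ad_GFP livers.

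Genes that work with the members were read from 6 further lists in the same fit. Of 20 tested enzymes that modify, fold and trim collagen, edgeR called 0 higher and 1 lower in ANG8 livers, Bmp1 (the procollagen C-proteinase, -1.06, SE 0.23, adjusted p = 0.0071), with a median log2 fold change of 0.53. Of 24 tested genes of the TGF-beta pathway 23 were not called, the median log2 fold change was 0.21, and the summed level was 384 to 459.6 CPM in ANG8 livers and 385 to 451 CPM in Ad_GFP livers, which overlapped. Of 18 PDGF and other fibrogenic signals 2 rose and 4 fell, among them Lgals3 (galectin-3, a lectin of macrophages, 1.42), Vegfa (an endothelial growth factor, -0.78), Agt (angiotensinogen, made by hepatocytes, -0.88) and Igf1 (the growth hormone target made by hepatocytes, -0.80). Of 12 integrin genes 2 rose, Itga6, a laminin receptor chain (1.44), and Itga4, a chain of leukocyte adhesion (0.77).

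Of 32 other matrix genes 5 rose and 4 fell in ANG8 livers. Cd44, the hyaluronan receptor of leukocytes (1.47), Sdc3, a syndecan (1.43), and Matn2, a matrilin (2.42), were higher. Lama3, the laminin alpha-3 chain, was lower, at 0.724, 0.738 and 0.667 CPM in ANG8 livers against 7.66, 7.18 and 5.38 CPM in Ad_GFP livers (-3.24, SE 0.38, adjusted p = 9.2e-05), the most negative log2 fold change among the tested genes of these lists. Of 13 other proteases and inhibitors edgeR called 0, with 6 at an unadjusted p under 0.05 and 3 called by DESeq2 and 2 by limma voom. Between shANG8 and shCtrl edgeR and limma voom called 0 of the 211 genes in all these lists and the cell type lists, with 24 at an unadjusted p under 0.05 and 2 called by DESeq2.

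Most immune cell markers were also called higher in ANG8 livers than in Ad_GFP livers. Of 16 macrophage markers edgeR called 12 higher and 0 lower in ANG8 livers, with a median log2 fold change of 1.04, with the smallest p for Aif1 (1.86) and Cd5l (1.65), and each marker was detected in every ANG8 and Ad_GFP library. Their summed level was 1415, 1435 and 1802 CPM in ANG8 livers, against 589 to 800.1 CPM in Ad_GFP livers, and 482 to 771 CPM in shANG8 livers, against 581 to 673 CPM in shCtrl livers. Of 15 T and NK cell markers 9 rose and 1 fell, among them Cd8a (1.54), Klrk1 (1.47), Lck (1.30) and Gzma (1.82), the 4 with the smallest p, with 169 to 195 summed CPM in ANG8 livers and 67.1 to 95.5 CPM in Ad_GFP livers. Macrophages can express Tgfb1, Vim, Mmp14 and Tgfbi, whose log2 fold changes were 1.09 to 1.53, and the part of the immune markers' rise in theirs was not tested.

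Marker lists of the other cell types that make matrix showed few calls in ANG8 livers. Of 14 sinusoidal endothelial markers edgeR called 0 (2 before adjustment at 0.05, with 1 called by limma voom and 1 by DESeq2), with 210.4 to 240.5 summed CPM in ANG8 livers and 159 to 203 CPM in Ad_GFP livers. Of 11 portal fibroblast markers it called 0 (2 at an unadjusted p under 0.05; 0 by the other tools), with a median of 0.57. Of 3 vascular smooth muscle markers it called 1 lower, Mylk (myosin light chain kinase, -1.17). Of 6 cholangiocyte markers it called 0 (2 at an unadjusted p under 0.05, and 0 by the other tools). Of the 2 tested mesothelial markers, Msln and Krt19, it also called 0 by every count, and Krt19 is on the cholangiocyte list too. Upk3b and Wt1, mesothelial markers that were not tested, were near the floor in all groups. Upk3b was at 0 in all ANG8 libraries and at 0.696, 0 and 1.21 CPM in Ad_GFP libraries. Wt1 was at 0 in all ANG8 and all shCtrl libraries and at 0, 0.148 and 0.134 CPM in Ad_GFP libraries.

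**Figure D5:**
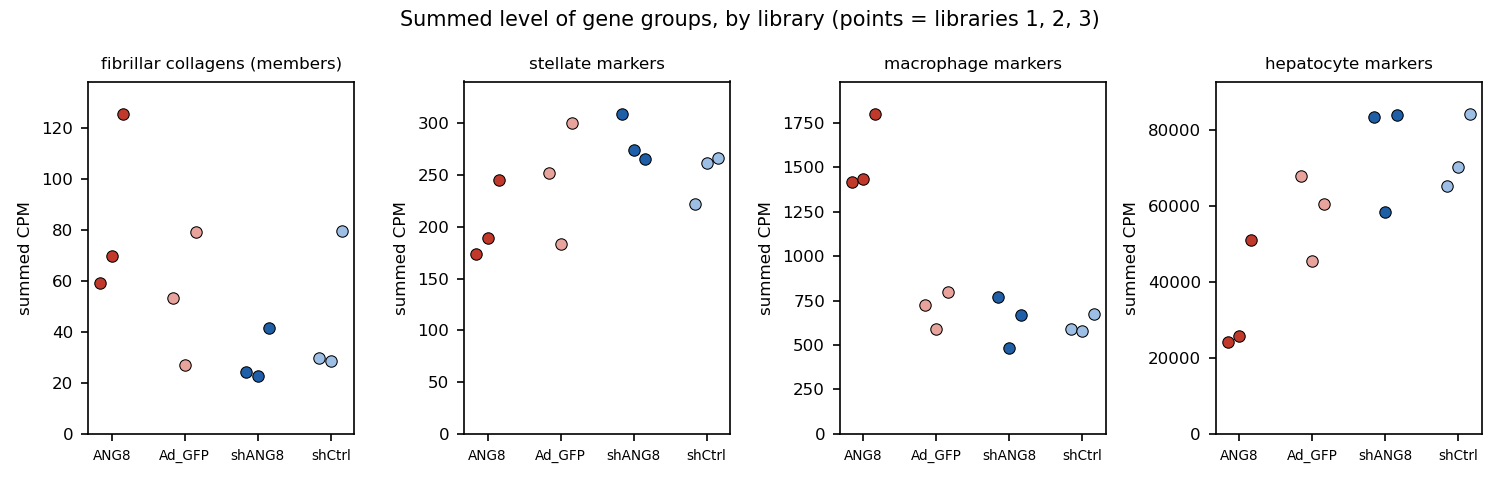
Summed TMM-scaled CPM by library of the 5 fibrillar collagens and of the stellate cell, macrophage and hepatocyte marker lists; points are libraries 1, 2 and 3 of each group. Macrophage markers lie at 1415 to 1802 CPM in ANG8 livers and at or below 800.1 CPM in every other library, whereas the stellate cell markers and fibrillar collagens overlap between ANG8 and Ad_GFP.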

How the data were processed

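Liver RNA of 12 libraries in 4 groups was measured. Trizol extraction and NEBNext Ultra libraries are recorded per the labels' protocols. Tools in the submitters' processing notes are featureCounts 1.5.0-p3 and CASAVA 1.8.2, with mm9 as the build. Aligner, strand setting and annotation release were not given in the sources used here. Values in the deposited matrix are raw read counts by gene, with no normalization by the authors. Coordinates are as deposited: 98.3% of the 54532 genes have identical coordinates in GENCODE vM21 on GRCm38, so the positions are given as GRCm38. Reads of overlapping genes on opposite strands cannot be told apart without the strand setting.

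Counts were tested with edgeR 4.0.16 in R 4.3.3: filterByExpr (minimum count 10) kept 14686 genes with 99.85% or more of each library's counts, TMM scaled the libraries, and a robust quasi-likelihood fit over all 12 libraries shared the spread. The SE is the absolute log2 fold change divided by the square root of F. TPM used the deposited gene lengths and serves only to compare genes. Replicates differed by more than counting noise (chi-square per gene 13.9 to 145). The script was tested on simulated data. Alternatives were DESeq2 1.42.0, limma 3.58.1 voom, DESeq2 size factors, no filter, a replicate block, only the groups compared, mitochondrial genes removed or as a covariate, and leaving out each library.

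The members, lists and role classes were chosen with earlier results of these data known. Values in every library are given for 18 members: those called in any of 4 comparisons, and in each role class those with the smallest p in either arm and the highest mean TPM. From each other list up to 4 genes with the smallest p were named. The result of 1 gene of these lists is not reported here.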

Additional observations from a re-analysis of the deposited data

Results flagged for a closer look

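For 4 members the response to the overexpression virus differed from that to the knockdown virus by the test of the difference itself, (ANG8 minus Ad_GFP) minus (shANG8 minus shCtrl). The log2 difference was 1.601 for Col4a1, 1.325 for Tgfbi, 1.423 for Vim and -1.329 for Col18a1. Each was called between ANG8 and Ad_GFP and not between shANG8 and shCtrl. The call for Tgfbi and Col18a1 held in 19 of 19 alternatives. That for Col4a1 held in 13 of 19 and that for Vim in 11 of 19.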

How the results depend on the processing

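Of the 9 members called between ANG8 and Ad_GFP, 7 passed in 20 of 20 alternatives. Col4a1 was lost without Ad_GFP library 2 (adjusted p = 0.051) and Eln passed in 13 of 20. The count of members was 10 under the replicate block and with a mitochondrial covariate, 9 in the other whole-data alternatives and 7 to 9 when 1 library was left out, with 7 without Ad_GFP library 2; the count of all genes was 2600 with the block, 2572 with DESeq2 and 2383 with no filter, and ran from 995, without ANG8 library 1, to 2164 without 1 library. It was 1080 without Ad_GFP 1, 1133 without Ad_GFP 2 and 1307 without ANG8 2. Between shANG8 and shCtrl the 28 genes became 102 with DESeq2, 132 with no filter, 55 with the replicate block, 47 with the mitochondrial covariate and 21 to 39 without 1 library, and the 0 members became 1 with no filter (Mmp14) and stayed 0 to 0 without 1 library. For the difference between the effects the 972 genes became 1541 with DESeq2, 1510 with no filter, 1550 with the block and 473 to 1227 without 1 library. The 4 members, 3 higher and 1 lower, became 9 with the block, 7 higher and 2 lower (Fn1 among the lower, adjusted p = 0.048). Their count was 2 to 5 without 1 library. Its call for Col4a1 was lost without Ad_GFP 1 (adjusted p = 0.078), Ad_GFP 2 (0.081), shCtrl 1 (0.064), shCtrl 2 (0.072), shCtrl 3 (0.064) or shANG8 2 (0.073). Its call for Vim was lost with the mitochondrial covariate (0.061) and without Ad_GFP 1 (0.070), Ad_GFP 2 (0.088), ANG8 1 (0.079), ANG8 2 (0.079), ANG8 3 (0.058), shCtrl 2 (0.053) or shCtrl 3 (0.086). Between shCtrl and Ad_GFP the 0 genes became 46 with DESeq2, 96 with no filter, 5 with the block and 0 to 10 without 1 library, with 0 to 0 members. The Col4a1 to Col4a2 log2 ratio difference, an alternative chosen after seeing the data, ran from 0.72 to 1.15. Uncalled log2 fold changes that changed sign when 1 library was left out ran, between ANG8 and Ad_GFP, from -0.0103 to 0.53 (Reln) and -0.27 to 0.75 (Rgs5). Between shANG8 and shCtrl they ran from -0.71 to 0.0305 (Col5a1), -0.27 to 0.70 (Col14a1), -0.14 to 0.0435 (Fn1), -0.15 to 0.60 (Eln), -1.15 to 0.28 (Acta2), -0.38 to 0.0936 (Vim) and -0.27 to 0.93 (Rgs5). Between shCtrl and Ad_GFP they ran from -0.0636 to 0.19 (Col18a1) and -0.35 to 0.22 (Eln). Other than for left-out libraries, the cause of these moves was not tested. The deviations of same-numbered libraries correlated at -0.067, 0.116 and 0.149 in the overexpression arm. In the knockdown arm they correlated at 0.034, 0.082 and 0.186. Libraries of different number gave -0.2055 to 0.114 in the overexpression arm and -0.127 to 0.0655 in the knockdown arm. In both arms the highest correlation was between the libraries numbered 3. The main fit did not take the numbers as pairs, and whether they mark pairs was not tested. Low counts limit Lox, Tagln, Timp1, Timp3, Mmp2 and Loxl1, the members with the lowest mean counts.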
